A study of Mus musculus with 12 samples.

Results

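De novo fatty acid synthesis was followed through 10 genes in whole mammary fat pads: the enzymes Acly, Acaca, Acacb, Fasn, Scd1, Elovl6 and Me1, and the regulators Srebf1, Mlxipl and Thrsp. They were chosen by name as lipogenic enzymes and the factors that control them, and all 10 were found among the 55487 gene IDs and among the 18647 genes tested. The 6 libraries of the 5 mg/kg group and the 6 of the 1 mg/kg group came from female C57BL/6 mice, a common inbred strain, given that amount of folic acid in juvenile and peri-pubertal life. All glands were right thoracic pads taken whole at postnatal day 84, which was 4 weeks after supplementation. The study asked whether the early dose of this vitamin left a trace in mammary RNA. The labels name no other diet, allele or batch, and they do not say whether the 6 libraries of a dose are separate animals, so each p measures the spread between these samples.

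Fat cells and the milk-producing epithelium build fatty acids from citrate-derived acetyl-CoA. ATP citrate lyase makes the acetyl-CoA, acetyl-CoA carboxylase turns it into malonyl-CoA, and fatty acid synthase joins the units into palmitate with NADPH that malic enzyme helps to supply, after which an elongase and a desaturase finish the chain. The genes are known targets of the sterol regulatory factor SREBP-1c, which responds to insulin, and of ChREBP, which responds to glucose. Brown fat, which burns fatty acids for heat through Ucp1, also expresses this pathway strongly.

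The stretches just before the transcription starts of 4 of the genes are shown because these genes ranged most widely between libraries (Acly and Elovl6) or held the CCAAT box more than once (Fasn and Thrsp). Each is the 250 bases before the RefSeq start on GRCm38.p6, read along the gene's own strand, with CCAAT or its reverse ATTGG in capitals, the box bound by the factor NF-Y.
Fasn, chr11:120824548-120824797, minus strand: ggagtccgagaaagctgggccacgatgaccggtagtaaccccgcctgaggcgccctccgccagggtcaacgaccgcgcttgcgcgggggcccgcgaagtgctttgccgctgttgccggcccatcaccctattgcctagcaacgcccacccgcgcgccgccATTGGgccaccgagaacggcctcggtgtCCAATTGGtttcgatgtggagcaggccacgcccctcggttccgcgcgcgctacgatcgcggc
Thrsp, chr7:97417551-97417800, minus strand: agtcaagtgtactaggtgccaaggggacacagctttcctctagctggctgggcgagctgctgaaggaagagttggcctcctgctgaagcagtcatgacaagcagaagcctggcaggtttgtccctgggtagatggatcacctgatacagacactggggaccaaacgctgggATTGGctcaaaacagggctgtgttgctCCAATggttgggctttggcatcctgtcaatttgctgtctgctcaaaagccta
Acly, chr11:100528001-100528250, minus strand: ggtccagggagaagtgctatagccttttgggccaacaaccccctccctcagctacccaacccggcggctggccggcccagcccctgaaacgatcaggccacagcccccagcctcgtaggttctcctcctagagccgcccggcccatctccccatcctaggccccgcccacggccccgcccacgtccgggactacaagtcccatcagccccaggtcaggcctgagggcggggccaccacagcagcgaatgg
Elovl6, chr3:129532136-129532385, plus strand: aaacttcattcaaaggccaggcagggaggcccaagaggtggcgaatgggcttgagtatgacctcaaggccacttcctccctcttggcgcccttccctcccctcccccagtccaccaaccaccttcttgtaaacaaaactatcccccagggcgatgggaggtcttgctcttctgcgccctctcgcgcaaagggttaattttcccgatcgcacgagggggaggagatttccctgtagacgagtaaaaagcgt
Fasn held the box 90, 62 and 59 bases before its start, the last of these overlapping its neighbour, and Thrsp held it 79 and 52 bases before its start, counted to the 5′ base of the match. The stretches of Acly and Elovl6 held none. Over the 9 genes with a RefSeq entry, which leaves out Scd1, 7 of 13 promoters held the box, against 33.8% of all 32851 promoters of that length. By gene it was 6 of 9, and no share over all genes was taken for that count. The Acly stretch held the GC box GGGCGG or its reverse CCGCCC 27, 76, 88 and 117 bases before the start, and 5 of the 13 promoters of those 9 genes held that box, against 32.7% of all. The E-box CACGTG, the core repeated in ChREBP sites, occurred in 1 of the 13 (Mlxipl, 98 bases before its start; 6.02% of all), and the sterol element core TCACNCCAC or its reverse in 1 (the other Mlxipl start; 1.05% of all). These are matches of letters and not tested sites.

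On GRCm38 all 10 genes are protein coding. Fasn lies at chr11:120805846-120824547, Acly at chr11:100476353-100528000, Acaca at chr11:84129672-84401651 and Srebf1 at chr11:60199089-60222581. Acacb lies at chr5:114146535-114250761, Mlxipl at chr5:135089890-135138382, Scd1 at chr19:44394455-44407879, Elovl6 at chr3:129532355-129638495, Me1 at chr9:86581371-86695953 and Thrsp at chr7:97412938-97417730. Exons of Srebf1 overlap those of Rai1 on the opposite strand, and Elovl6, Me1 and Mlxipl overlap weakly read antisense transcripts, so reads there cannot be assigned with certainty. Libraries held 48.2 to 75.3 M gene reads, and the 10 genes had between 1069 reads (Mlxipl, in its lowest library) and 2582520 reads (Scd1, in its highest), so counting error is small beside the spread between libraries.

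The pads held RNA of several tissues, in amounts that varied. Level here means the mean log2 CPM of a marker list, where CPM scales the counts of a library to its TMM-corrected size. All 14 adipocyte and all 12 epithelial markers were read in every library. The adipocyte level was 8.39 ± 0.30 at 5 mg/kg and 7.90 ± 0.67 at 1 mg/kg (SD, n = 6 each). Ucp1 had 0.902 CPM in replicate 6 and 112 to 869 CPM in the other 5 libraries of the 5 mg/kg group, and 10.1 to 409 CPM at 1 mg/kg. The 14 brown fat markers, Ucp1 among them, all had reads in every library and summed to 96.1 to 1729 CPM at 5 mg/kg and 92.3 to 983 CPM at 1 mg/kg. The 12 B cell markers, also read in every library, summed to 10.2 to 788 CPM at 5 mg/kg and 8.26 to 1098 CPM at 1 mg/kg. The B cell level left a gap between −0.091 and 3.38, with replicates 4, 5 and 6 at 5 mg/kg and replicates 2 and 4 at 1 mg/kg below it. The 12 skeletal muscle markers summed to 17420 to 51888 CPM at 5 mg/kg and 17966 to 83498 CPM at 1 mg/kg. Reads outside annotated genes were 11.8% ± 5.43 of all reads at 5 mg/kg and 15.1% ± 6.61 at 1 mg/kg (SD, n = 6 each). In bulk tissue, fewer cells of a type and less RNA per cell cannot be told apart.

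Every one of the 10 genes had a higher mean at 5 mg/kg, but none passed the test, and the libraries of the groups overlapped for all 10. Acly, which makes cytosolic acetyl-CoA, had 178, 956 and 2999 CPM (lowest, median, highest) at 5 mg/kg and 91.3, 328 and 1151 CPM at 1 mg/kg. Replicate 5 of the 5 mg/kg group stood highest and replicate 6 of the 1 mg/kg group lowest, and the groups overlapped over most of their range. The log2 fold change was 1.21 ± 0.72 (SE), the largest of the 10, with edgeR's quasi-likelihood adjusted p = 0.943. Acaca, the main cytosolic acetyl-CoA carboxylase, had 385, 1099 and 2371 CPM at 5 mg/kg and 180, 559 and 1363 CPM at 1 mg/kg, a log2 difference of 0.88 ± 0.52. Acacb, the carboxylase at the mitochondrial surface, whose malonyl-CoA restrains fatty acid uptake by mitochondria, had 110, 246 and 398 CPM at 5 mg/kg and 81.9, 132 and 240 CPM at 1 mg/kg, a difference of 0.78 ± 0.35. Its 3 highest libraries were replicates 5, 4 and 1 of the 5 mg/kg group, which were also the 3 with the most Ucp1 in that group.

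Fasn, the synthase itself, had 2274, 5852 and 10758 CPM at 5 mg/kg and 1001, 2840 and 7569 CPM at 1 mg/kg. Replicate 4 of the 1 mg/kg group exceeded every 5 mg/kg library but replicate 5, and the log2 difference was 0.82 ± 0.52. Its 5 mg/kg mean was 5800 ± 3069 CPM, against a 1 mg/kg mean of 3280 ± 2391 CPM (SD, n = 6 each). Me1, the malic enzyme that yields NADPH, had 110, 257 and 763 CPM at 5 mg/kg and 46.9, 175 and 461 CPM at 1 mg/kg, a difference of 0.65 ± 0.59. Elovl6, which lengthens palmitate, had 89.0, 498 and 1457 CPM at 5 mg/kg and 47.7, 291 and 679 CPM at 1 mg/kg. It varied nearly as widely as Acly, 4.93 log2 units between its highest and lowest library against 5.04 for Acly, and its dose difference was 0.93 ± 0.66. Scd1, the desaturase that makes oleate, was the most abundant of the 10, with 12376, 19242 and 37488 CPM at 5 mg/kg and 7423, 12135 and 39181 CPM at 1 mg/kg. Its highest library, replicate 4, belonged to the 1 mg/kg group, and its log2 difference of 0.40 ± 0.45 was the smallest of the 10.

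Of the 3 regulators, Srebf1 and Mlxipl had the lowest levels of the 10 genes per kb of exon and the narrowest ranges. Srebf1, which encodes SREBP-1, had 79.5, 104 and 151 CPM at 5 mg/kg and 39.8, 56.3 and 125 CPM at 1 mg/kg. The 1 mg/kg libraries 1, 3, 5 and 6 lay below every 5 mg/kg library, and libraries 2 and 4 lay among them. Its log2 difference was 0.63 ± 0.28. Mlxipl, which encodes ChREBP, had 26.9, 41.9 and 78.9 CPM at 5 mg/kg and 16.7, 23.2 and 51.0 CPM at 1 mg/kg, a difference of 0.69 ± 0.32. Thrsp, a thyroid hormone-responsive nuclear protein that accompanies lipogenesis, had 206, 461 and 1257 CPM at 5 mg/kg and 83.8, 278 and 648 CPM at 1 mg/kg, a difference of 0.90 ± 0.52. Srebf1 spanned 1.92 and Mlxipl 2.24 log2 units over the 12 libraries, against 3.43 for Fasn and 3.91 for Thrsp.

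**Figure D1:**
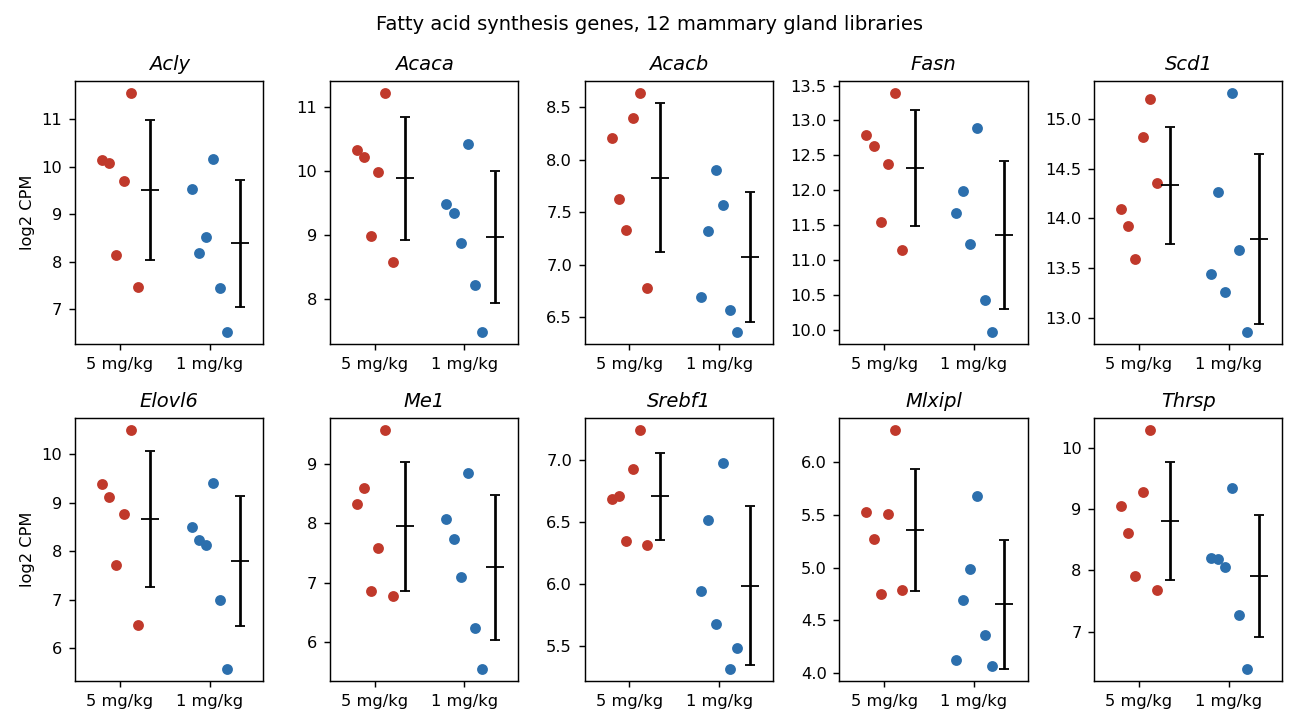
Level of each gene (log2 CPM, vertical axis) in the 6 libraries given 5 mg/kg (red, left) and the 6 given 1 mg/kg (blue, right), replicates 1 to 6 from left to right, with the mean and SD as a black bar. The mean is higher at 5 mg/kg in all 10 panels and the points of the groups overlap in each.

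By edgeR's quasi-likelihood test with Benjamini-Hochberg adjustment, 0 of 18647 genes (0%) and so 0 of the 10 passed, all 10 at an adjusted p of 0.943. DESeq2 and limma-voom also called 0. At an unadjusted p under 0.05 edgeR had 359 genes (1.93%), among them 2 of the 10, Acacb (95% interval of the difference 0.021 to 1.54) and Srebf1 (0.015 to 1.25). At that unadjusted level DESeq2 had 776 of the 48171 genes it tested (1.61%), 3 of them among the 10, and voom had 360 of 18647 (1.93%), with 2 among the 10. All 10 log2 fold changes were positive, against 47.2% of all genes, and their median was 0.80 against −0.018 for all genes. Only 8 genes (0.0429%) had groups that did not overlap, none of them among the 10. Since the 10 genes move together between libraries (Pearson r of at least 0.53 in every pair), their shared sign is not 10 separate observations.

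**Figure D2:**
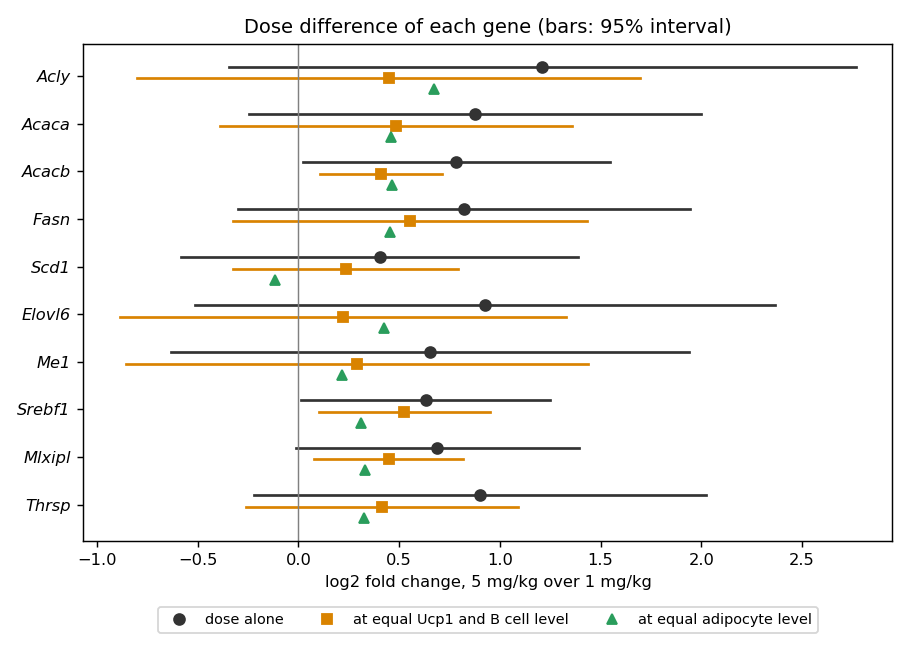
Log2 fold change of each gene, 5 mg/kg over 1 mg/kg (horizontal axis), from the fit on dose alone (black circles), at equal Ucp1 and B cell level (orange squares) and at equal adipocyte level (green triangles, no interval drawn). Bars are 95% intervals, and on dose alone those of Acacb and Srebf1 lie above 0 and the other 8 include it.

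The size of the difference depended on single libraries. The median over the 10 genes was 0.49 without replicate 5 of the 5 mg/kg group and 1.17 without replicate 4 of the 1 mg/kg group, and without that library 8 of the 10 had an unadjusted p under 0.05, as did 1445 of all 18926 genes then tested (7.64%), and 0 passed. Without replicates 4 and 5 of the 5 mg/kg group, the libraries highest in brown fat markers, it was 0.40. With the adipocyte level in the fit it was 0.38 and Scd1 stood at −0.12, and with Ucp1 alone it was 0.49. The B cell level alone left it at 0.80, the skeletal muscle level at 0.72 and the epithelial level at 0.88. With the share of reads outside annotated genes in the fit, a covariate chosen after seeing the data, the median was 0.36, with 370 genes (1.98%) and 0 of the 10 at an unadjusted p under 0.05.

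At equal Ucp1 and B cell level all 10 dose differences were again positive (49.8% of all genes), with a median of 0.43. That median was 0.26 without replicate 2 and 0.78 without replicate 6 of the 5 mg/kg group, and 0.20 with the brown fat list in place of Ucp1. Fasn had the largest, 0.55 ± 0.40, and Elovl6 the smallest, 0.22 ± 0.51. By edgeR's quasi-likelihood test, the only tool run on this fit, 0 genes (0%) passed after adjustment and 966 genes (5.18%) had an unadjusted p under 0.05. Those included 3 of the 10, Acacb at 0.41 ± 0.14, Srebf1 at 0.53 ± 0.19 and Mlxipl at 0.45 ± 0.17. With the brown fat list in place of Ucp1, 1 of the 10 and 7.13% of all genes had an unadjusted p under 0.05. With the adipocyte level added to Ucp1 and the B cell level, the median was −0.016.

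The 10 genes varied together from library to library. Replicate 5 of the 5 mg/kg group was the highest of 12 for 9 of them, with Scd1 the exception at rank 2. Replicate 4 of the 1 mg/kg group ranked 2 for 8 of them, 1 for Scd1 and 6 for Acacb. Replicate 6 of the 1 mg/kg group was the lowest for 9, and for Srebf1 the lowest was replicate 5 of that group. The share of reads outside annotated genes ran the other way in some of these libraries. It was 5.58% in replicate 5 and 20.8% in replicate 6 of the 5 mg/kg group, the libraries with the highest and the lowest mean of the 10 genes in that group, and 26.6% in replicate 6 of the 1 mg/kg group, the lowest of all. That order did not hold throughout. At 1 mg/kg the share was 10.6% in replicate 4 (mean of the 10 genes 9.65 log2 CPM), 8.34% in replicate 3 (8.37) and 12.5% in replicate 5 (7.65). In replicate 4 at 5 mg/kg it was 7.05% (9.33). After each dose mean was taken out, the 45 pairs had a median Pearson r of 0.84 over the 12 libraries (Spearman 0.78), from 0.53 for Acacb with Scd1 to 0.99 for Acaca with Fasn. The median was 0.92 within the 5 mg/kg libraries and 0.83 within the 1 mg/kg libraries, and 0.76 without the library highest and the library lowest in the 10 genes. All values share library, depth and scaling, so they are given as a description. Acaca (median r with the other 9 of 0.97) and Elovl6 (0.95) followed the others most closely, and Scd1 (0.72) and Acacb (0.75) least.

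**Figure D3:**
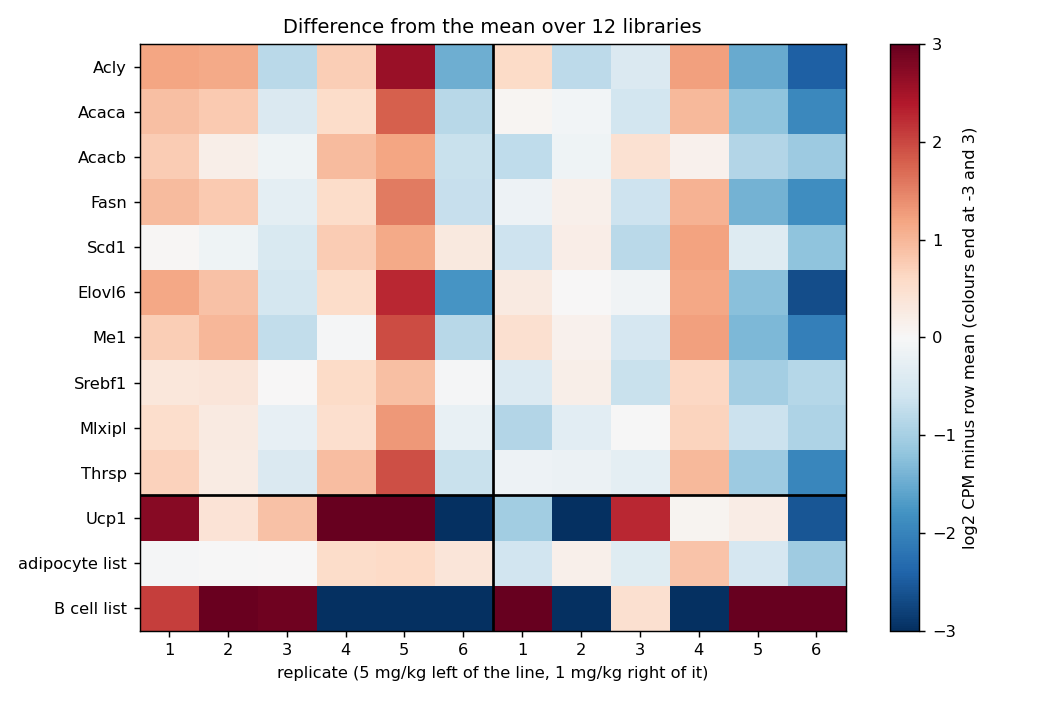
Each gene's log2 CPM minus its mean over the 12 libraries (colour; colours end at −3 and 3), for the 10 genes, Ucp1 and the adipocyte and B cell lists (rows), with 5 mg/kg replicates left of the line and 1 mg/kg replicates right. The column of replicate 5 at 5 mg/kg is red throughout the 10 genes, and that of replicate 6 at 1 mg/kg is blue. The column of replicate 4 at 1 mg/kg is red except at Acacb, which lies close to its mean there.

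Per kilobase of exon the order of mean levels over the 12 libraries was Scd1 with 3970 CPM per kb, Fasn with 415, Thrsp with 190 and Acly with 147. Then came Elovl6 with 67.7, Me1 with 67.0, Acaca with 50.9, Acacb with 20.5, Srebf1 with 15.6 and Mlxipl with 6.42 CPM per kb. Exon length is the union of all isoforms, 17074 bases for Acaca, so the level of Acaca per kb is understated. Scd1 exceeded Fasn in 12 of 12 libraries, and Elovl6 exceeded Me1 in 6 of 12, so that pair has no fixed order. Thrsp was above Acly in 10 of 12 and Acacb above Srebf1 in 9 of 12. The ratio of Scd1 to Fasn per kb ran from 5.47 to 20.6 at 5 mg/kg, highest in replicate 6, and from 7.57 to 21.3 at 1 mg/kg. The ratio of Acaca to Acacb per kb ran from 1.69 to 3.38 at 5 mg/kg and from 1.10 to 4.04 at 1 mg/kg. Both ratios were picked after their values were seen.

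Among other genes, the 10 most like the mean of the group, over 12 libraries with the dose means removed, were Pygl, Hsd17b12, Tmem120b, Aacs, Nat8l, Tkt, Acss2, Slc25a1, Parm1 and Qdpr, with r between 0.96 and 0.98. Tkt is the transketolase of the pentose phosphate pathway, Acss2 makes acetyl-CoA from acetate, Slc25a1 carries citrate out of mitochondria, and Hsd17b12 works in fatty acid elongation. Of 12944 genes with a mean of at least 1 CPM, 107 (0.827%) had an r above 0.9. Pygl, the liver-type glycogen phosphorylase, had a dose difference of 0.99 ± 0.47 and did not pass (edgeR's quasi-likelihood adjusted p = 0.943).

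Brown fat content was read through Ucp1. In the fit with dose and B cell level, all 10 genes had a positive slope on Ucp1 (45.1% of all genes), with a median of 0.19 log2 units per doubling of Ucp1 against −0.0081 over all genes. By edgeR's quasi-likelihood test 3 of the 10 passed with a positive slope, against 2421 genes (13.0%) positive and 2523 (13.5%) negative over the genome. Acacb had 0.19 ± 0.027 (adjusted p = 0.000680), Mlxipl 0.14 ± 0.032 (adjusted p = 0.0110) and Thrsp 0.23 ± 0.063 (adjusted p = 0.0231). Elovl6 (0.33 ± 0.11, adjusted p = 0.0508) and Acly (0.33 ± 0.13, adjusted p = 0.0726) had steeper slopes with wider errors. Scd1 at 0.077 ± 0.049 and Srebf1 at 0.063 ± 0.038 had the flattest. Acacb passed in every variation of this fit that was run except the one without the B cell level and the one with the share of reads outside annotated genes added. With that share added, 5 genes (0.0268%) and 0 of the 10 passed, the median slope was 0.092, and Acacb stood at 0.17 ± 0.056 (adjusted p = 0.570). Without replicate 6 of the 5 mg/kg group, which had almost no Ucp1, 996 genes passed in place of 4944 (4.07% of those tested with a positive slope), Acacb alone of the 10 was left, and the median slope was 0.11. Without the B cell level in the fit, 15 genes (0.0804%) and 0 of the 10 passed, with 5 of the 10 and 20.3% of all genes at an unadjusted p under 0.05. Over the other brown fat markers in place of Ucp1, Acacb and Mlxipl passed and Thrsp did not. In that fit 32.3% of all genes passed, 15.6% with a positive slope. With the adipocyte level added to Ucp1 and the B cell level, Acacb and Mlxipl passed and the median slope was 0.12. There 19.4% of all genes passed, 11.6% with a positive slope. Over the 12 libraries with dose means removed, the mean of the 10 genes had a Pearson r of 0.53 with Ucp1 (Spearman 0.34). That r was 0.74 with the adipocyte level (Spearman 0.59) and 0.69 with the level of 7 endothelial markers (Spearman 0.58).

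Lymphoid content was read through the B cell list, in the same fit. All 10 genes had a negative slope (53.4% of all genes), with a median of −0.13 per log2 unit of the B cell level. 5 of the 10 passed with a negative slope, where 4802 genes (25.8%) were called negative and 5189 (27.8%) positive by edgeR's quasi-likelihood test. Scd1 fell most, by 0.19 ± 0.038 per log2 unit (adjusted p = 0.00159), then Thrsp by 0.17 ± 0.046 (adjusted p = 0.00912). Mlxipl fell by 0.12 ± 0.026 (adjusted p = 0.00252), Srebf1 by 0.11 ± 0.029 (adjusted p = 0.00688) and Acacb by 0.11 ± 0.022 (adjusted p = 0.00144). Scd1 had 20943 to 37488 CPM in replicates 4, 5 and 6 of the 5 mg/kg group, which lie below the gap in the B cell level, and 12376 to 17540 CPM in replicates 1, 2 and 3. At 1 mg/kg it had 39181 and 19655 CPM in replicates 4 and 2, below the gap, and 7423 to 13153 CPM in the other 4. Because of that gap the slope is close to a contrast of 5 libraries with 7. The adipocyte level moved with the B cell level, 13 of 14 adipocyte markers passing with a negative slope, and with the adipocyte level in the fit 0 of the 10 passed and 1 had an unadjusted p under 0.05, where 3016 genes (16.2%) passed and 32.3% had such a p. With the share of reads outside annotated genes added instead, 0 of the 10 passed, all 10 slopes were negative with a median of −0.088, and 5324 genes passed, 11.1% of all with a negative slope. Without replicate 1 of the 1 mg/kg group 9 of the 10 passed, where 9090 of 18816 genes passed, 22.9% with a negative slope. The part that the share of reads outside annotated genes has in the levels of the 10 genes was otherwise not tested.

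**Figure D4:**
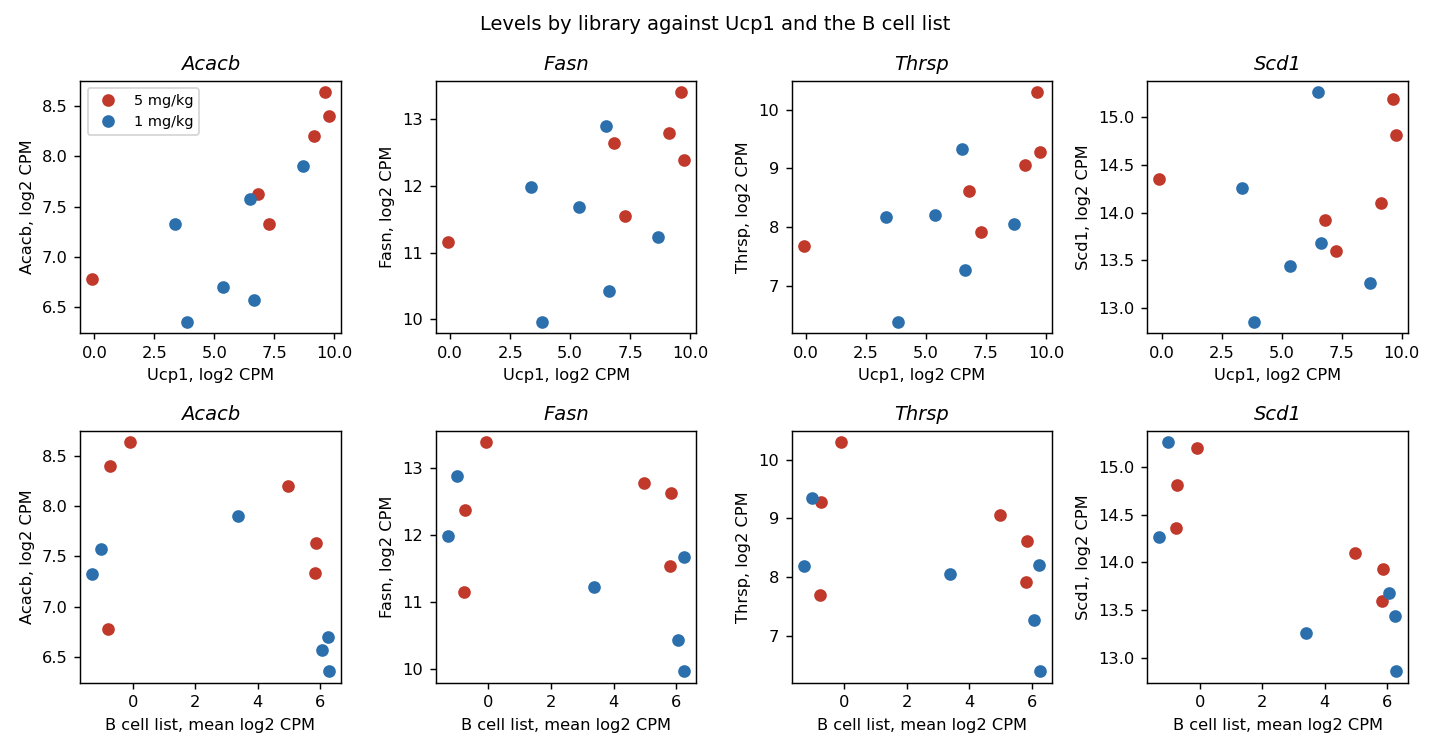
Levels of Acacb, Fasn, Thrsp and Scd1 (log2 CPM, vertical axis) against Ucp1 (log2 CPM, upper row) and the mean log2 CPM of the B cell list (lower row), with 5 mg/kg libraries in red and 1 mg/kg libraries in blue. Acacb is highest in the 3 libraries richest in Ucp1, the red point at the far left of the upper row is replicate 6 at 5 mg/kg, and no library lies between −0.091 and 3.38 in the lower row.

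**Figure D5:**
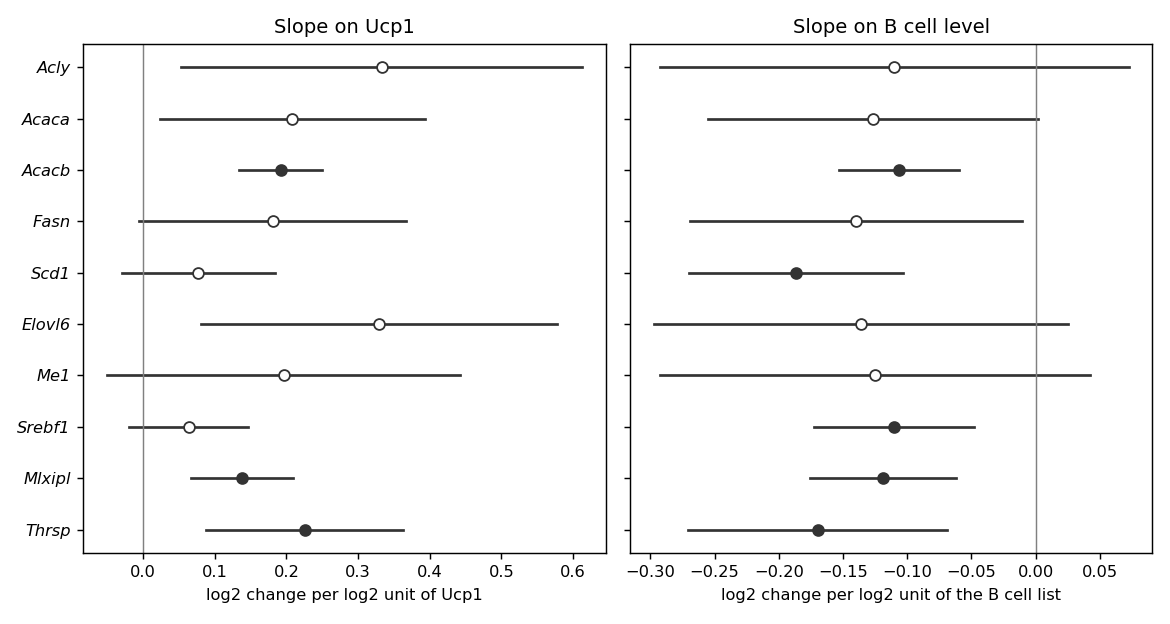
Slope of each gene on Ucp1 (left; log2 units per doubling) and on the B cell level (right; per log2 unit) from the fit with dose, with 95% intervals and filled circles for genes past the adjusted threshold. All 10 slopes are positive on the left, where 3 circles are filled, and negative on the right, where 5 are.

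A slope on Ucp1 that differed between the doses was not detected. The fit left out the B cell level, and without that level 0 of the 10 passed for the slope on Ucp1 itself. The median difference in slope over the 10 was 0.098. It was −0.067 without replicate 2 and −0.082 without replicate 3 of the 1 mg/kg group. With replicate 2 left out, 13.0% of all genes and 0 of the 10 had an unadjusted p under 0.05. The values that follow are from all 12 libraries. Of 18647 genes 0 (0%) passed in edgeR's quasi-likelihood test, the only tool run on it, and 269 (1.44%) had an unadjusted p under 0.05, none of them among the 10. The difference in slope, 5 mg/kg minus 1 mg/kg, was 0.013 for Acacb with a 95% interval from −0.22 to 0.25, and 0.14 for Fasn with one from −0.39 to 0.67.

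Genes related to the pathway were read from lists of 57 names, of which 2, Elovl2 and Olah, were too low to test. The lists were not limited to genes that promote synthesis, and Cpt1a and Insig1, described below, are among them. The suppliers of carbon and NADPH had positive dose differences for 13 of 13, with a median of 0.55, from 0.30 for Idh1, the cytosolic isocitrate dehydrogenase, to 0.91 for Tkt. The other elongation and desaturation genes were positive for 12 of 15 with a median of 0.24, from −0.23 for Scd4 to 1.99 ± 0.91 for Elovl3, an elongase of brown fat and skin. The accessory genes were positive for 6 of 7 with a median of 0.38, from −0.044 for Cpt1a, which admits fatty acids to mitochondria, to 0.68 for Mecr of mitochondrial fatty acid synthesis. The other regulators were split, 11 of 20 positive with a median of 0.056, from −0.26 for Foxo1 to 0.59 for Insig1, which retains SREBP in the endoplasmic reticulum. None of these passed (edgeR's quasi-likelihood test, every adjusted p at least 0.943).

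On Ucp1 13.0% of all genes passed with a positive slope and 13.5% with a negative one. The calls that follow are from the fit with dose, Ucp1 and B cell level on all 12 libraries. In that fit 4944 genes passed on Ucp1, against 15 without the B cell level and 996 without replicate 6 at 5 mg/kg. With the share of reads outside annotated genes added, 5 passed. The listed genes were not read in those other fits. The suppliers passed with a positive slope for 7 of 13, among them Slc2a4, the insulin-responsive glucose carrier, and the pyruvate dehydrogenase subunits Pdha1 and Pdhb. Elongation genes passed for 4 of 15, led by Elovl3 at 0.69 ± 0.049 per doubling of Ucp1. Accessory genes passed positive for 6 of 7, and Cpt1a was called negative at −0.057 ± 0.019. Of the other regulators 2 of 20 were called positive, Ppargc1b and the insulin signalling kinase Akt2, and Foxo1 was called negative. On the B cell level 25.8% of all genes were called negative and 27.8% positive. With the adipocyte level added, 3.19% were called negative and 13.0% positive, and the listed genes were not read in that fit. Called negative there were 7 of 13 suppliers, 8 of 15 elongation genes and 6 of 7 accessory genes. Scd2, a further desaturase, had −0.17 ± 0.048. The other regulators went both ways, 7 of 20 negative and 4 positive. Insig1 had −0.17 ± 0.029, and Srebf2, the sterol-synthesis relative of Srebf1, was called positive at 0.12 ± 0.024, while Srebf1 itself was called negative.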

How the data were processed

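The authors deposited whole-number read counts per Ensembl gene for 12 TruSeq v2 libraries, 6 per dose. Alignment with STAR to mm10 and counting with HTSeq 0.6.1 are stated per the submitters' processing notes, with the STAR version, annotation and strand setting not given in the sources used here. The 5 tally lines, 16.7% to 35.7% of all reads, were kept out of every total and test; they include reads aligned to several places (8.30% to 10.5%), which lowers genes with near-identical copies. Without strand, overlapping antisense genes cannot be told apart. Mitochondrial genome genes held 41.9% to 64.8% of gene reads. Symbols and positions came from GENCODE vM21 (55141 of 55487 IDs matched), and promoters from RefSeq on GRCm38.p6.

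From the counts, edgeR 4.0.16 (R 4.3.3) was run with filterByExpr, TMM factors and the robust quasi-likelihood F-test on all 12 libraries, with Benjamini-Hochberg adjustment over 18647 genes and a threshold of 0.05. Models were dose alone, dose with Ucp1 (log2 CPM, prior count 2) and the B cell list level, and dose by Ucp1. Fold changes are log2, 5 mg/kg over 1 mg/kg, with each SE taken from the estimate and its F value. Ucp1 and the list levels come from the same libraries as the genes set against them, so shared scaling enters those slopes. Alternatives were DESeq2 1.42.0, limma-voom (limma 3.58.1), other scalings, filters and covariates, and each library left out in turn. The code was tested on simulated data with each gene drawn independently, so that test does not cover genes that move together. All 10 genes are named; of other lists, the gene highest in CPM, the extremes of fold change and genes past a threshold may be. The genes, lists and marker sets were chosen with earlier results of these data known. Replicate numbers follow record order and pair no samples.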

Additional observations from a re-analysis of the deposited data

Results flagged for a closer look

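Among 26 sets of 6 libraries tested for a sample far from the others, of which chance flags about 1 in 20, only Ucp1 at 5 mg/kg was picked out. Replicate 6 stood at −0.098 log2 CPM, and the next lowest library of the group at 6.81, a gap of 0.70 of the group's range. In that library the mean of the 10 fatty acid synthesis genes was 8.04 log2 CPM, the lowest of its group, and the adipocyte level was 8.52, above the group's median of 8.34.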

How the results depend on the processing

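The dose result kept 0 genes and 0 of the 10 past the threshold under every alternative run, including each library left out, and all 10 differences stayed positive except Scd1 (−0.12) with the adipocyte level in the fit. With scaling by library size alone the median of all genes moved to −0.16 and that of the 10 to 0.61, 1 of the 10 passed on Ucp1 (57.4% of all genes, 1.72% positive) and 1 on the B cell level (50.9% of all genes, 1.95% negative), the median pair correlation was 0.73, and the Ucp1 slopes of Scd1 (−0.021) and Srebf1 (−0.029) turned. With the share of reads outside annotated genes added, 0 of the 10 passed on Ucp1 (0.0268% of all genes). On the B cell level 0 of the 10 passed (11.1% of all genes negative), and the Ucp1 slope of Me1 (−0.0041) turned. The count of the 10 on Ucp1 was 0 without the B cell level (0.0804% of all genes). With a library left out it was 1 to 5, where 4.07% to 14.7% of all genes passed with a positive slope. It was 1 without replicate 6 at 5 mg/kg (4.07% positive) and 5 without replicate 1 at 1 mg/kg (11.8% positive). On the B cell level the count was 2 without Ucp1 (16.8% of all genes negative) and 0 with the adipocyte level added (3.19% negative). With a library left out that count was 5 to 9, where 18.9% to 25.5% of all genes passed with a negative slope. With the adipocyte level added, the dose differences at equal Ucp1 and B cell level turned for Acly (−0.21), Acaca (−0.048), Scd1 (−0.099), Elovl6 (−0.46) and Me1 (−0.39), and the B cell slopes for Acly (0.21), Acaca (0.11), Fasn (0.092), Elovl6 (0.14), Me1 (0.17) and Thrsp (0.0046). Elovl6 also turned with the brown fat list in place of Ucp1 (−0.081). With a library left out, that dose difference ranged from −0.092 to 0.75 for Elovl6 and from −0.072 to 0.80 for Me1, and the Ucp1 slope of Srebf1 from −0.047 to 0.078. The cause of these changes was not tested. The median pair correlation was 0.79 to 0.88 with a library left out. The fit on 7 libraries, the epithelial covariate on the slopes, the share of reads outside annotated genes as a covariate and the fits without the libraries highest in brown fat or at the extremes were chosen after seeing the data. No paired analysis was possible because the labels give the libraries no replicate numbers shared between the doses.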
